A study of Mus musculus with 12 samples.

Results

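Prnp (ENSMUSG00000079037) encodes the prion protein PrP and was 1 of the 13283 genes in a table of mRNA levels from mouse cytotoxic T lymphocytes (CTL), the effector form of CD8+ T cells. It was chosen from that table by its symbol because its mRNA was higher in WT CTL given an inhibitor of PI3K p110δ, so the values of that comparison are given as a description with no test. PI3K p110δ is a lipid kinase of lymphocytes, and the question was how Prnp mRNA changed when it was inhibited for 24 h in CTL that had or lacked FOXO1. The 12 libraries made 4 groups of 3 biological replicates. WT CTL came from GzmB cre+ mice. FOXO1-GFP KO CTL came from mice that carried the same Cre and FOXO1-GFP fl/fl alleles, so that Foxo1 was deleted in cells using the granzyme B promoter. Each genotype was given DMSO vehicle or IC87114 at 10 µM (PI3Kdi) for 24 h. All mice were female and aged 11 to 27 weeks, and all CTL had been activated for 48 h through CD3 and CD28 and grown in IL-2 and IL-12 before being sorted as live CD8+ cells. The FOXO1-GFP KO cells were also sorted as GFP-, so the 2 genotypes differed by a gate as well as by the deletion.

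PrP is a glycoprotein held at the outer face of the plasma membrane by a glycosylphosphatidylinositol (GPI) anchor. It binds copper ions, is shed by ADAM proteases, and is best known for the misfolded form that causes prion disease in the brain. It is also found on lymphocytes, T cells included. In T cells PI3K signalling through PKB/AKT keeps the transcription factor FOXO1 out of the nucleus, so that inhibiting PI3K lets FOXO1 reach DNA.

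In the GENCODE annotation of GRCm38 the gene lies on the forward strand of chromosome 2, from 131909928 to 131938429, and its main transcript, Prnp-201, has 3 exons. The first, of 76 bp (131909928 to 131910003), and the second, of 98 bp (131912195 to 131912292), are wholly 5′ UTR. The third, of 2010 bp (131936420 to 131938429), holds all of the coding sequence (131936430 to 131937191, 254 codons) and the 3′ UTR. The summed exon length was 2343 bp. Of this, 145 bp (6.19%) overlapped the read-through gene Prn on the same strand, and reads that fall in both genes are not counted for either by the method the authors used. Prnd, Prn and Sprn, the other members of the family, were not analysed here.

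The 250 bases before the start of Prnp, from RefSeq (GRCm38.p6, chr2:131909678-131909927, forward strand, 5′ to 3′), are shown because they hold the proximal promoter of a gene whose mRNA rose with PI3Kdi in CTL that lacked FOXO1. Capitals mark every match, on either strand, to the 6 short motifs that were searched.
Prnp promoter: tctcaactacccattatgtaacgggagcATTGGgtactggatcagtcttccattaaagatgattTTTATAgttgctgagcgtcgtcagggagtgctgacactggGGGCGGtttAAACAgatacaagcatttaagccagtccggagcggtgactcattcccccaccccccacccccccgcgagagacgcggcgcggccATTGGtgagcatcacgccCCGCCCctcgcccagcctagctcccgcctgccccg
The motifs were the forkhead forms GTAAACA and ATAAACA, to which FOXO proteins bind, the core AAACA with which both end, the GC box GGGCGG bound by SP1, the CCAAT box and the TATA box TATAAA. Neither GTAAACA nor ATAAACA was in the window, and 3.17% and 4.16% of 32851 mouse promoter windows of the same length held them. AAACA occurred once, starting at -137 on the forward strand and next to the GC box at -146, and 46.4% of windows held it. A further GC box lay at -35 on the reverse strand (32.7% of windows held at least 1). CCAAT lay at -222 and -53 on the reverse strand (33.8% of windows), and TATAAA at -186 on the reverse strand (12.4%). GC content was 58.8%, against a median of 52.4% over all windows. These matches describe letters in the window and not factor binding, and sequence further from the start was not searched.

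Prnp mRNA was highest in WT CTL with PI3Kdi, next in FOXO1-GFP KO CTL with PI3Kdi, then in WT CTL and lowest in FOXO1-GFP KO CTL. In WT CTL the deposited values were 17.70, 18.04 and 18.85 FPKM in replicates 1, 2 and 3 (18.2 ± 0.591, SD, n = 3). FPKM are fragments per kilobase of exon and unit of depth, here after scaling between libraries. In WT CTL with PI3Kdi they were 40.92, 38.83 and 48.05 FPKM (42.6 ± 4.83, SD, n = 3). All 3 libraries with PI3Kdi were above all 3 without, and the highest value of the series was replicate 3 of this group. In FOXO1-GFP KO CTL the values were 13.46, 14.79 and 13.87 FPKM (14.04 ± 0.681, SD, n = 3). With PI3Kdi they were 24.26, 29.26 and 27.54 FPKM (27.02 ± 2.54, SD, n = 3). Here too the groups did not overlap, and the lowest library with PI3Kdi was replicate 1.

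**Figure D1:**
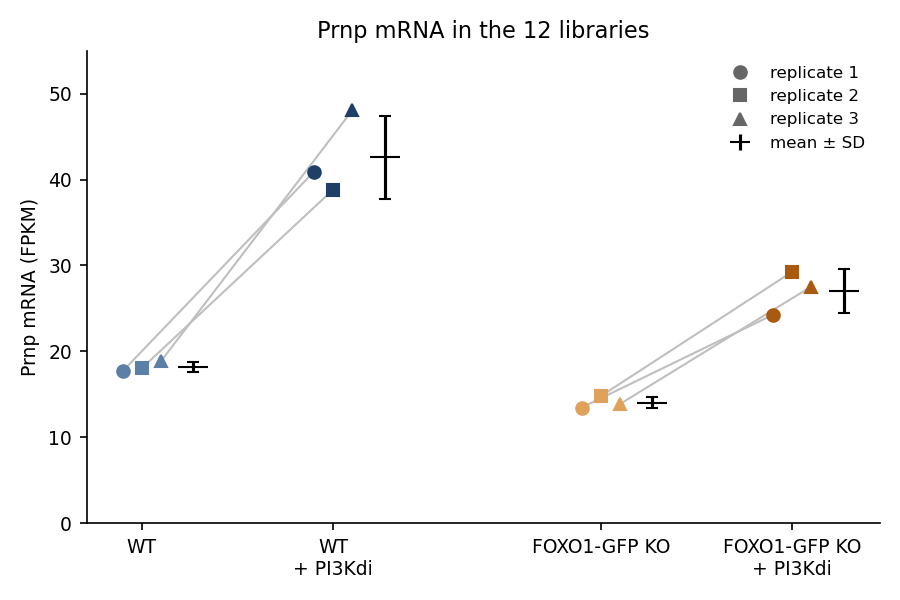
Prnp mRNA (FPKM) in each of the 12 libraries, with 1 symbol per replicate number, grey lines joining libraries of the same genotype and number, and bars for the mean ± SD of 3. The 4 groups are separate: FOXO1-GFP KO reaches 14.79, WT lies between 17.70 and 18.85, FOXO1-GFP KO+PI3Kdi between 24.26 and 29.26, and WT+PI3Kdi starts at 38.83.

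No group overlapped its neighbour in this order. Between FOXO1-GFP KO and WT the ratio of means was 1.30, between WT and FOXO1-GFP KO with PI3Kdi it was 1.48, and between the groups with PI3Kdi it was 1.58. Set among all genes of the table per length, Prnp lay above 73.0 to 74.2% of genes in FOXO1-GFP KO libraries and above 77.5 to 78.7% in WT libraries. With PI3Kdi it lay above 83.1 to 86.0% in FOXO1-GFP KO and 89.6 to 91.7% in WT libraries. Prnp was thus among the more abundant mRNA in every group. An estimated 418 to 2029 reads stood behind each value, a counting error of 2.22 to 4.89%, which covers sampling of reads only.

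Each library with PI3Kdi could be set against the library of the same genotype and replicate number. In WT CTL the ratios were 2.31, 2.15 and 2.55 in pairs 1, 2 and 3, and the mean log2 ratio was 1.22 (SD 0.122, n = 3). In FOXO1-GFP KO CTL they were 1.80, 1.98 and 1.99, with a mean log2 ratio of 0.94 (SD 0.079, n = 3). Every pair was higher with PI3Kdi. The 3 ratios of FOXO1-GFP KO CTL were all below the 3 of WT CTL, the rise for which Prnp was picked. How many other genes show this order of ratios was not counted. In FPKM the difference was 23.2, 20.8 and 29.2 in the WT pairs (24.4 ± 4.33, SD, n = 3). In the FOXO1-GFP KO pairs it was 10.8, 14.5 and 13.7 (12.98 ± 1.93, SD, n = 3). The log2 fold change was 0.28 smaller in FOXO1-GFP KO CTL. This difference contains the WT comparison for which Prnp was picked and was not tested.

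The rule by which Prnp was picked did not use the FOXO1-GFP KO libraries, so the change with PI3Kdi in them was tested. Prnp and this test were nonetheless chosen with earlier results of these data known. The spread in this fit came from all 12 libraries, including the WT libraries in which Prnp was picked. The p and the interval are therefore not wholly independent of the choice. A fit of the FOXO1-GFP KO libraries alone is given below. Prnp mRNA rose 1.91-fold in FOXO1-GFP KO CTL with PI3Kdi. The log2 fold change on the log2(FPKM + 0.1) scale was 0.94 (95% confidence interval 0.71 to 1.16), with adjusted p = 0.0228 (limma on the 12 libraries, Benjamini-Hochberg over all genes). With libraries paired by replicate number within a genotype the interval was 0.81 to 1.06 and the limma adjusted p was 1.37e-05. An mRNA was called at adjusted p under 0.05 and a fold change over 1.5. Under that rule 6 genes (0.0452%) were called in FOXO1-GFP KO CTL, all higher with PI3Kdi, and 370 (2.79%) with the pairs. Prnp had the smallest unadjusted p of all genes both with and without the pairs (1.72e-06 without). Its fold change was not the largest: 74 genes had a larger log2 fold change, of which 4 were called and 39 averaged at least 1 FPKM. A group of 3 libraries wholly above the other, as for Prnp, was seen in 5.28% of genes in FOXO1-GFP KO CTL. In WT CTL, where Prnp was picked, it was seen in 4.43% and 13 genes (0.0979%) were called. All 6 libraries with PI3Kdi were above all 6 without in 0.452% of genes, Prnp included.

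**Figure D2:**
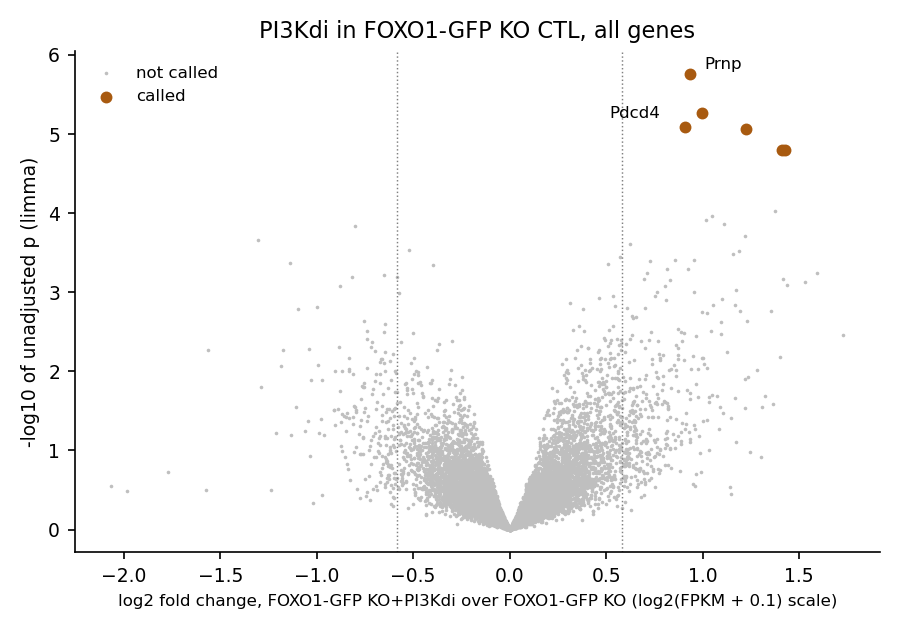
PI3Kdi in FOXO1-GFP KO CTL for all 13283 genes, with the log2 fold change on the horizontal axis and -log10 of the unadjusted limma p on the vertical axis, dotted lines at a fold change of 1.5 and filled brown points for the 6 genes called. Prnp is the highest point (log2 fold change 0.94), and Pdcd4 is the other gene named.

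The size of the rise was stable and its call without the pairs was not. With 1 FOXO1-GFP KO library of either treatment left out, the log2 fold change lay between 0.88 and 1.01. Leaving out a WT library cannot move it and bears only on the p. Unpaired limma gave adjusted p = 0.0588 without WT replicate 3, and 0.123, 0.116 and 0.0730 without FOXO1-GFP KO replicates 1, 2 and 3. It gave adjusted p = 0.165 and 0.174 without FOXO1-GFP KO+PI3Kdi replicates 2 and 3. With the pairs, limma adjusted p stayed between 9.71e-06 and 0.000393 whichever of the 12 libraries was left out. When only the 6 FOXO1-GFP KO libraries were fitted, limma adjusted p was 0.188 without the pairs and 0.00452 with them.

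The genotypes were compared within each treatment and as the average over both. All these values use the WT libraries in which Prnp was picked, whose spread differed between treatments (coefficient of variation 3.25% without and 11.3% with PI3Kdi), so they are given for Prnp as a description with no test. Without PI3Kdi Prnp mRNA in FOXO1-GFP KO CTL was 0.772-fold that of WT CTL, and with PI3Kdi 0.636-fold, and in neither did the genotypes overlap. All 3 FOXO1-GFP KO libraries were below all 3 WT libraries in 6.79% of genes without PI3Kdi and in 7.9% with it. The average log2 fold change was -0.51, or 0.701-fold, which is under the fold change of 1.5 that a call needs. Over all genes 335 (2.52%) were called by limma in this averaged comparison, and 89 (0.67%) with the pairs. Within PI3Kdi alone the log2 fold change of Prnp was -0.65, which is past the limit of 0.585 on that scale. The study lists Prnp among mRNA raised by the inhibitor in WT CTL and lower in treated FOXO1-GFP KO than in treated WT CTL. In each FOXO1-GFP KO library given PI3Kdi, Prnp mRNA was above every WT library without it.

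Foxo1 itself, the targeted gene, was at 5.77 to 10.46 FPKM in the 6 WT libraries and at 0.58 to 1.75 FPKM in the 6 FOXO1-GFP KO libraries, which were all lower. The table does not separate the deleted exon from the rest of the gene. The CD8 T cell markers Cd8a, Cd8b1, Cd3e, Cd3g, Gzmb, Prf1 and Nkg7 were all in the table, Gzmb at 7317 to 10955 FPKM. Ms4a1, Cd79a, Lyz2, Csf1r, Adgre1, Flt3, Foxp3 and Ncr1, which are markers of other blood cells, had no row among the genes kept, while other markers of the same cell types did. The summed FPKM of the 3 B cell markers with a row (Cd79b, Ighm, Igkc) was 11.4 to 15.6 in WT, 15.3 to 19.5 in WT with PI3Kdi, 4.48 to 6.88 in FOXO1-GFP KO and 4.31 to 6.36 in FOXO1-GFP KO with PI3Kdi. It was lower in every FOXO1-GFP KO library than in any WT library, and the ranges of the treatments overlapped in both genotypes, narrowly in WT. The summed macrophage or monocyte markers with a row (Cd68 and Itgam, nearly all of it Cd68) came to 15.36 to 21.38 FPKM in FOXO1-GFP KO and 21.32 to 27.01 with PI3Kdi, and to 15.9 to 21.4 in WT and 14.7 to 25.5 with PI3Kdi. The NK cell marker Klrb1c was at 2.47 to 3.72 FPKM in FOXO1-GFP KO and 3.31 to 4.81 with PI3Kdi, and at 1.94 to 2.67 in WT and 2.11 to 2.64 with PI3Kdi. Of the stromal markers Pecam1 and Col1a2 had a row, and their sum was 6.09 to 7.66 FPKM in FOXO1-GFP KO and 7.66 to 8.99 with PI3Kdi, and 7.38 to 11.9 in WT and 7.57 to 11.4 with PI3Kdi. These 3 sums thus lay higher with PI3Kdi in FOXO1-GFP KO CTL, where Prnp rose, with ranges that touched or overlapped. The CD4 T cell markers Cd4 and Cd40lg summed to 0.84 to 1.34 FPKM in WT and 1.36 to 1.79 with PI3Kdi, which did not overlap, and to 0.62 to 1.10 in FOXO1-GFP KO and 0.64 to 1.27 with PI3Kdi. The study reports Cd40lg mRNA in CTL themselves, where it depended on PI3K p110δ after antigen receptor stimulation. Which cells this sum came from was not tested. The dendritic cell marker Itgax was at 0.10 to 0.32 FPKM over all libraries. The part of these markers in the Prnp levels was not tested. In bulk samples fewer cells with a transcript and less of it per cell cannot be told apart. Depth recovered from the values was 25.1 to 48.0 M reads in WT, 15.2 to 19.0 in WT with PI3Kdi, 12.9 to 32.8 in FOXO1-GFP KO and 17.6 to 30.6 in FOXO1-GFP KO with PI3Kdi. Depth did not overlap between the WT treatments and did in FOXO1-GFP KO CTL.

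Around Prnp, 24 other annotated genes lay within 500 kb of it and 7 of them were in the table. None of the 7 was called with PI3Kdi by limma in either genotype, with or without the pairs. Their median log2 fold change was 0.05 in FOXO1-GFP KO and -0.00 in WT CTL, against -0.02 and -0.04 over all genes. The nearest was Rassf2, an adaptor of the RAS pathway that starts 120.3 kb downstream on the reverse strand. Its log2 fold change was 0.07 in FOXO1-GFP KO and 0.22 in WT CTL. On the other side Smox, spermine oxidase, had log2 fold changes of 0.38 and 0.38, from 0.947 to 1.29 FPKM in FOXO1-GFP KO CTL and from 1.76 to 2.35 in WT CTL. Smox was lower in FOXO1-GFP KO CTL over both treatments (log2 fold change -0.83, limma adjusted p = 0.0352), a call lost with the pairs (adjusted p = 0.680). Pcna, the DNA polymerase clamp, was the most abundant neighbour and had log2 fold changes of 0.05 and -0.00.

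**Figure D3:**
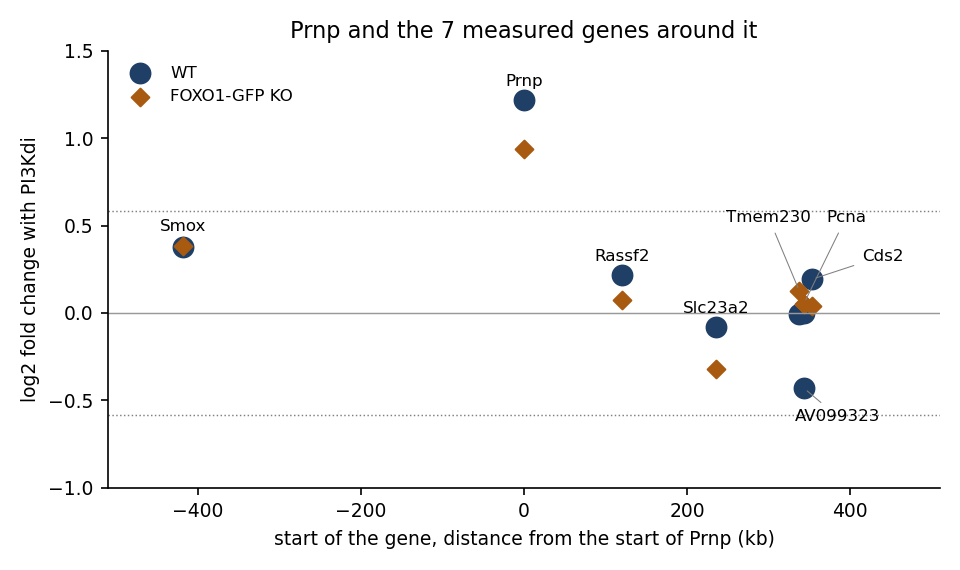
Log2 fold change with PI3Kdi in WT (circles) and FOXO1-GFP KO CTL (diamonds) of Prnp and the 7 measured genes within 500 kb, placed by the distance of their starts from that of Prnp in kb, with dotted lines at a fold change of 1.5. Prnp lies at 1.22 and 0.94 and the neighbours lie within the dotted lines.

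Genes of the biochemistry of PrP were listed by role: its partners and proteases, the GPI anchor pathway, other GPI-anchored proteins of lymphocytes, copper and metal handling, and transcription factors that have been linked to Prnp. With the neighbours, 98 listed genes were in the table. With PI3Kdi 0 of them were called by limma without the pairs in either genotype. Of all genes, 0.0452% were called in FOXO1-GFP KO and 0.0979% in WT CTL. With the pairs 3 of 98 (3.06%) were called in each genotype, close to the 2.79% of all genes called in FOXO1-GFP KO and the 2.57% in WT CTL. In each genotype 2 of the 3 were higher and 1 lower, where 1.82% and 0.964% of all genes were called in those directions in FOXO1-GFP KO and 1.53% and 1.05% in WT CTL. Over genotype 8 of 98 (8.16%) were called, the deleted Foxo1 included, against 2.52% of all genes. Of the 8, 3 were higher (0.685% of all genes) and 5 lower (1.84%) in FOXO1-GFP KO CTL. With the pairs Foxo1 alone was called, where 0.504% of all genes were called lower.

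Of the partners and proteases 15 of 20 were in the table, with a median log2 fold change of -0.16 for PI3Kdi in FOXO1-GFP KO CTL and -0.06 in WT CTL. Bace1, the β-secretase that cuts the amyloid precursor, fell with PI3Kdi in FOXO1-GFP KO CTL with the pairs (log2 fold change -0.65, limma adjusted p = 0.00486, and 0.549 without). Its level was low, at 0.487 ± 0.0569 FPKM without and 0.273 ± 0.0416 FPKM with PI3Kdi (SD, n = 3). Itgb1, the integrin β1 chain, had a log2 fold change of -0.45 and was not called. App, the amyloid precursor itself, was higher in FOXO1-GFP KO CTL over both treatments (log2 fold change 0.93, limma adjusted p = 0.00541), a call that was lost with the pairs at adjusted p = 0.054. It was at 0.467 FPKM in WT and 0.943 FPKM in FOXO1-GFP KO CTL.

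All 32 listed genes of GPI anchor synthesis and remodelling were in the table, and their median log2 fold change was -0.00 in FOXO1-GFP KO and -0.01 in WT CTL with PI3Kdi. The member called was Gpld1, a phospholipase that cuts GPI anchors. With the pairs it rose with PI3Kdi in FOXO1-GFP KO (log2 fold change 0.73, limma adjusted p = 0.0240) and in WT CTL (log2 fold change 1.21, limma adjusted p = 0.00152), and neither call was made without them. Its mean was 0.513 FPKM in FOXO1-GFP KO, 0.893 with PI3Kdi, 1.17 in WT and 2.76 in WT with PI3Kdi, the same order of groups as Prnp except for the middle pair. Over genotype it was lower in FOXO1-GFP KO CTL (log2 fold change -1.35, limma adjusted p = 0.0130, and 0.115 with the pairs). Dpm3, a subunit of the enzyme that makes the mannose donor, had the next largest log2 fold change in FOXO1-GFP KO CTL, 0.41, and was not called.

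Of the GPI-anchored proteins 17 of 27 were in the table, with median log2 fold changes of 0.08 and 0.04. Cd160, a receptor of cytotoxic lymphocytes, rose with PI3Kdi in FOXO1-GFP KO CTL with the pairs, from 24.6 ± 7.42 to 41.3 ± 8.46 FPKM (SD, n = 3, log2 fold change 0.77, limma adjusted p = 0.00137, and 0.707 without). In WT CTL Cd160 went from 19.5 ± 4.62 to 26.8 ± 6.53 FPKM (SD, n = 3, log2 fold change 0.46, limma adjusted p = 0.0185 with the pairs). It was not called there because the fold change was under 1.5. Nt5e (CD73), which makes adenosine at the cell surface, rose in WT CTL with the pairs (log2 fold change 1.19, limma adjusted p = 0.00947). In FOXO1-GFP KO CTL its log2 fold change was 0.62 and it was not called. Cd55, which protects cells from complement, was lower in FOXO1-GFP KO CTL over both treatments (log2 fold change -0.75, limma adjusted p = 0.0210, and 0.160 with the pairs).

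Of the copper and metal genes 21 of 23 were in the table, with median log2 fold changes of -0.13 in both genotypes. Atp7a, a copper pump, had the largest change in FOXO1-GFP KO CTL with PI3Kdi, a log2 fold change of -0.69, and was not called. Its level was low, at 0.38 ± 0.174 FPKM without and 0.19 ± 0.0794 FPKM with PI3Kdi (SD, n = 3). This fold change too depends on the 0.1 FPKM added before the logarithm. The metallothionein Mt3 fell with PI3Kdi in WT CTL with the pairs (log2 fold change -0.86, limma adjusted p = 0.00854) and had a log2 fold change of -0.13 in FOXO1-GFP KO CTL. Over genotype Mt2 and Mt3 were higher in FOXO1-GFP KO CTL (log2 fold changes 0.91 and 0.98, limma adjusted p = 0.0283 and 0.0431) and Atp7b was lower (-0.95, adjusted p = 0.00874), and none of these calls was made with the pairs. Atp7b averaged 0.153 FPKM or less in every group, so its fold change depends on the 0.1 FPKM added before the logarithm.

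All 7 transcription factors were in the table. With PI3Kdi none was called in either genotype, and the largest change in FOXO1-GFP KO CTL was that of Mtf1, which responds to metals (log2 fold change -0.32). Foxo3 and Foxo4, the FOXO genes that were not deleted, Sp1, Hsf1 and Xbp1 were not called over genotype either. Foxo1 was lower by design (log2 fold change -2.74, limma adjusted p = 0.000297, and 0.00184 with the pairs).

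**Figure D4:**
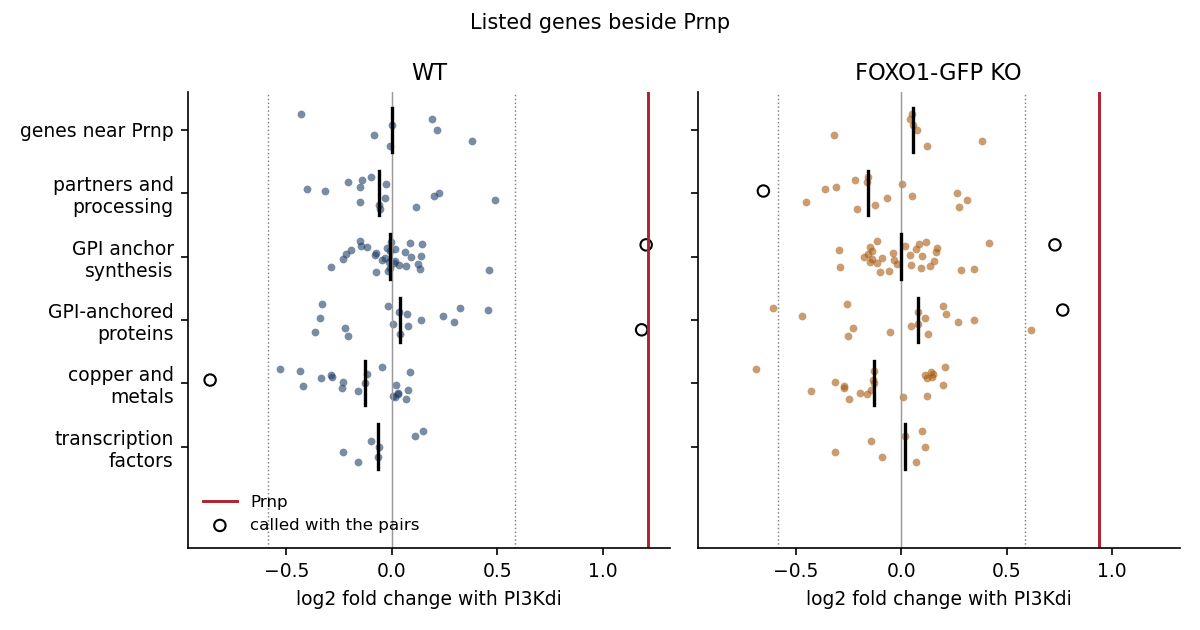
Log2 fold change with PI3Kdi of the listed genes in WT (left) and FOXO1-GFP KO CTL (right), 1 point per gene with black bars at list medians, dotted lines at a fold change of 1.5, open circles for genes called with the pairs and a red line at Prnp (1.22 and 0.94). The list medians lie between -0.16 and 0.08, and 3 genes are called in each panel.

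The genes whose pattern was most like that of Prnp were found by Pearson's r of log2(FPKM + 0.1) over the 12 libraries, among 9548 genes averaging at least 1 FPKM. Prnp itself, genes without a symbol and those named Gm with digits or ending in Rik were left out of the 9548. The libraries share scaling and pairs, so r is given as a description. It was at least 0.9 for 19 genes and -0.9 or below for 5. The highest was that of Pdcd4 (r = 0.967), which encodes an inhibitor of translation. Pdcd4 was at 8.31, 8.74 and 8.63 FPKM in FOXO1-GFP KO CTL and at 15.41, 15.67 and 17.4 with PI3Kdi. It was at 14.57, 10.79 and 12.86 FPKM in WT CTL and at 26.81, 22.62 and 25.81 with PI3Kdi. As for Prnp, all 6 libraries with PI3Kdi were above all 6 without. Pdcd4 was among the genes called in FOXO1-GFP KO CTL with PI3Kdi (log2 fold change 0.91). Over both treatments it was lower in FOXO1-GFP KO CTL (log2 fold change -0.59). Genes of this section were picked by their values in these same libraries, so their changes and calls are given as a description and not as support.

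Next came Smap2 (r = 0.960), a GTPase-activating protein for ARF, Ubac2 (r = 0.945), a protein of the endoplasmic reticulum, Lancl1 (r = 0.942), which binds glutathione, and S1pr1 (r = 0.934), the receptor by which T cells leave lymphoid organs. Their changes with PI3Kdi in FOXO1-GFP KO CTL were log2 fold changes of 0.51, 0.31, 0.33 and 0.95, and none was called without the pairs. With the pairs S1pr1 was called, and the other 3 had fold changes under 1.5. S1pr1 was at 0.82, 1.33 and 1.45 FPKM in FOXO1-GFP KO CTL and at 1.63, 3.46 and 2.29 with PI3Kdi, so it varied more between replicates than Prnp did. The lowest r were those of Mycn (-0.957), a transcription factor of the MYC family, Akr1b8 (-0.942), an aldo-keto reductase, and Spp1 (-0.939), the secreted protein osteopontin. Mycn was at 39.88, 36.09 and 38.69 FPKM in FOXO1-GFP KO CTL and at 27, 24.98 and 24.30 with PI3Kdi. Spp1 was at 862.75, 930.04 and 934.85 FPKM in FOXO1-GFP KO CTL and at 542.32, 540.68 and 484.44 with PI3Kdi. Both were picked for the lowest r with Prnp over these same libraries, so a fall with PI3Kdi was built into the choice.

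**Figure D5:**
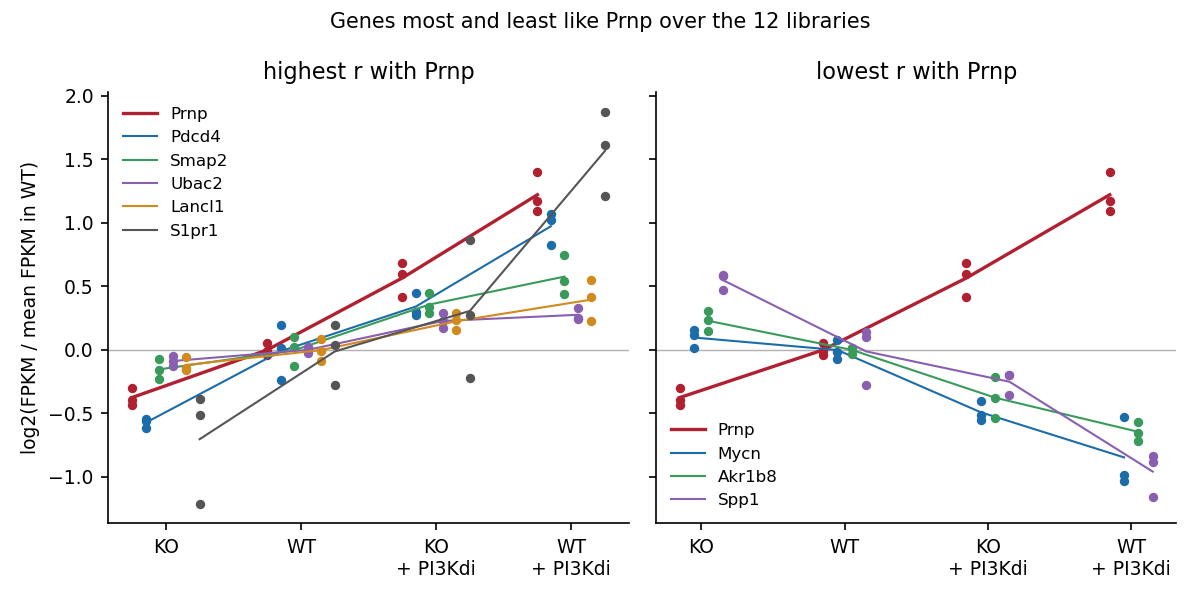
Log2 of FPKM over the mean FPKM of WT for Prnp and the 5 genes with the highest (left) and the 3 with the lowest Pearson's r (right), with 1 point per library and lines through group means, the groups being ordered by their Prnp level (KO is FOXO1-GFP KO). Prnp and Pdcd4 climb over the 4 groups, while Mycn, Akr1b8 and Spp1 descend.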

How the data were processed

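The FPKM were made by the authors: paired reads of 75 bp from stranded poly(A) libraries were aligned with STAR 2.7.1a to GRCm38.p6, counted per gene on Ensembl release 98 annotation, filtered and TMM-scaled in edgeR, divided by summed exon length, and deposited rounded to 2 decimals. Genes lost in that filter were not analysed here. As counts were not used, limma 3.58.1 in R 4.3.3 was run on log2(FPKM + 0.1): 4 group means over 12 libraries, contrasts, empirical Bayes with a mean-variance trend, and Benjamini-Hochberg adjustment over 13283 genes. Fold changes on this scale understate those of low genes. P-values measure the spread between libraries labelled as biological replicates. The genotype contrast was fitted for Prnp as for every gene, and its P-value is not given because Prnp was picked in the WT libraries. Prnp, the gene lists and the tests were chosen with earlier results of these data known. The genes named were Prnp, Foxo1, list members called or with the largest changes in FOXO1-GFP KO CTL, the nearest neighbours, and the 5 highest and 3 lowest by r with Prnp.

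The labels number the replicates and do not say what equal numbers share. Deviations from group means correlated between equal numbers within a genotype (r = 0.596 to 0.838 in WT and 0.594 to 0.780 in FOXO1-GFP KO, over genes) and not steadily across genotypes (r = -0.409 to 0.730), so libraries were paired within a genotype, as a random block in limma (consensus correlation 0.757). Depth was recovered from genes of up to 400 bp, whose rounded FPKM must be whole reads: of held-out values from genes of up to 800 bp, 98.3 to 99.4% were within 0.2 reads of a whole number, against 40.0% for evenly spread values. Gene models came from GENCODE M21 (13276 genes matched), motif windows and the promoter from RefSeq.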

Additional observations from a re-analysis of the deposited data

How the results depend on the processing

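For Prnp with PI3Kdi in FOXO1-GFP KO CTL the log2 fold change lay between 0.88 and 1.01 under all 35 alternatives, and under 28 of them it was called. Many of the 35 cannot move this estimate, which stayed at 0.94. They include leaving out a WT library, the block on all libraries, the filter on mean FPKM and fitting only FOXO1-GFP KO libraries. These bear on the call alone. The log2 fold change was 0.94 with limma adjusted p = 0.188 when only the FOXO1-GFP KO libraries were fitted without the pairs. Leaving out 1 library gave 0.88 to 1.01 without the replicate block, with limma adjusted p of 0.0180 to 0.174, and 0.91 to 0.99 with it. The genotype difference of Prnp, averaged over PI3Kdi, was -0.54 to -0.47 under its 32 alternatives, each under the fold change that a call needs. The WT log2 fold change was 1.13 to 1.28 under its 7 alternatives.

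Counts of calls depended on the pairs. With PI3Kdi in FOXO1-GFP KO CTL, 370 genes were called with the replicate block within genotype, 328 with pairs as fixed terms, 446 with limma-voom on estimated reads and the block, 254 with only the FOXO1-GFP KO libraries and fixed pairs and 0 without pairs, and 0 to 4 with 1 library left out. Over genotype, 89 were called with the block, 145 with 1 FPKM added, 192 among genes averaging at least 1 FPKM, 105 with limma-voom and the block, and 240 to 306 with 1 library left out. Of the list members in FOXO1-GFP KO CTL, 3 were called with the block, 5 with fixed pairs, 3 with limma-voom and the block, and 3 with only the FOXO1-GFP KO libraries and fixed pairs. In WT CTL 3 were called with each of the first 3 of these. Over genotype 1 was called with the block, 4 with 1 FPKM added and 3 with limma-voom and the block. Of the 5 genes most like Prnp, Spearman's rho kept 3 and subtracting pair means kept 0. Leaving out libraries within the block, or WT libraries from the FOXO1-GFP KO test, and the list counts were alternatives added after seeing the data. The causes of these shifts were not tested.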

Other observations

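Likeness to Prnp named other genes when measured in other ways. By Spearman's rho over the 12 libraries the highest were Lpxn and Pdcd4 (0.965 each), Ccl5 and Ubac2 (0.958 each) and S1pr1 (0.951). With the mean of each pair subtracted first, which leaves only the changes with PI3Kdi, the highest Pearson's r were those of Sla2 (0.996), an adaptor that dampens antigen receptor signals, Il7r (0.995), the IL-7 receptor chain, Tprgl (0.995), Emb (0.995) and Ncf1 (0.993), a subunit of the NADPH oxidase. Pdcd4 then had r = 0.989.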
